A study of Mus musculus with 11 samples.

Results

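The genes described here encode the enzymes that break down stored fat in adipocytes, together with the proteins that switch the first of them on and off: Pnpla2, Abhd5, G0s2, Lipe, Mgll and Pnpla3. They were chosen by name, and every probe set that the platform annotation pairs with exactly 1 of these symbols was taken. This gave 13 probe sets for 6 genes, out of 45101 probe sets and 18193 genes with a single symbol. All 6 genes and 11 of the 13 probe sets passed a filter on dim signals, a mean intensity of 51.8.

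The measurements come from 11 Affymetrix arrays of 3T3-L1 cells, a mouse preadipocyte line that was differentiated into adipocytes in culture. Chronic insulin cells (CI, n = 2 arrays) received 10 nM insulin in 4 additions over a day and the following morning. TNF cells (n = 3) were kept with the inflammatory cytokine TNFα at 2 ng/ml for 4 days, and DEX cells (n = 3) with the synthetic glucocorticoid dexamethasone at 20 nM for 8 days. Control cells (n = 3) are labelled as having no treatment. The treatments were staggered so that all cells had spent the same time since differentiation, and the study's title places all of them under insulin resistance, with CI standing for hyperinsulinemia and TNF for inflammation. The labels give the tissue as adipose, but the samples are cultured cells. The protocol names an ethanol carrier at 0.01% as the control for dexamethasone, and the labels leave it unclear whether the control cells received it. The arrays of a group are called experimental replicates, with no word on separate cultures. The p-values therefore cover the spread among these arrays alone, and that spread may be technical.

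Triglyceride is broken down in steps. Adipose triglyceride lipase, the product of Pnpla2, removes the first fatty acid, hormone-sensitive lipase (Lipe) acts mainly on the resulting diglyceride, and monoglyceride lipase (Mgll) releases the last fatty acid and glycerol. ABHD5, also called CGI-58, activates adipose triglyceride lipase, and G0S2 binds and inhibits it. Pnpla3 encodes a relative of adipose triglyceride lipase on lipid droplets, whose transcript is known to follow feeding and insulin. Insulin restrains lipolysis, while catecholamines raise it through cyclic AMP, and both TNF and glucocorticoids are known to raise lipolysis in cultured adipocytes. Much of this control acts on protein phosphorylation and location, which these arrays do not measure.

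Intensities are linear and in arbitrary units, and a fold change is a difference of group means of log2(intensity + 16), with its standard error (SE) from limma. Genes with a Benjamini-Hochberg adjusted p under 0.05 across 15622 genes are said to be called or to pass. Median intensities of the arrays were 124.5 to 129.5, and the lowest Spearman correlation of an array with another of its group was 0.996 to 0.9976. Actin signal at the 3' end over that at the 5' end, a sign of RNA integrity, was 1.82 in CI replicate 1 and 1.43 in CI replicate 2, with the other 9 arrays at 1.44 to 1.73. Fkbp5, a glucocorticoid receptor target, averaged 8045 in DEX and 1214 in control, and Saa3, an acute-phase gene, averaged 18180 in TNF and 399.4 in control. The other treatment check genes rose too: Tsc22d3 by 1.99 in DEX, Ccl2 by 2.82 in TNF, and Dusp6 by 1.66 and Angptl8 by 1.27 in CI (log2 fold changes, all called). Adipoq, the adiponectin gene, was at 21550 in CI, 20890 in TNF, 21640 in DEX and 22830 in control, near the top of the scale (array maxima of 22500 to 25930), and marks the cells as adipocytes.

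The 3 treatments gave 3 different patterns of calls across the genes. In CI the lipase gene Pnpla2 fell while its inhibitor G0s2, its activator Abhd5 and Mgll rose, and Lipe and Pnpla3 did not pass the test. In TNF 5 genes fell and Abhd5 did not pass. In DEX Pnpla2 and Abhd5 rose, and G0s2, Mgll, Lipe and Pnpla3 fell. This made 4 of 6 genes called in CI, 5 of 6 in TNF and 6 of 6 in DEX, where 17.3%, 25.2% and 27.6% of all tested genes were called. By direction, CI had 3 higher and 1 lower (8.38% and 8.88% of all genes), TNF 0 higher and 5 lower (13.9% and 11.3%), and DEX 2 higher and 4 lower (14% and 13.6%). Of the 11 tested probe sets, 7 were called in CI, 8 in TNF and 10 in DEX, beside 12.9%, 19% and 22.2% of all probe sets. The median log2 fold change of the 6 genes was 0.32 in CI, -0.436 in TNF and -0.358 in DEX, beside 0.008, -0.014 and 0.017 over all tested genes. Groups did not overlap for 4 genes in CI, 5 in TNF and 6 in DEX, with 46%, 43.1% and 40.5% of all tested genes not overlapping. The 3 comparisons share the control arrays.

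**Figure D1:**
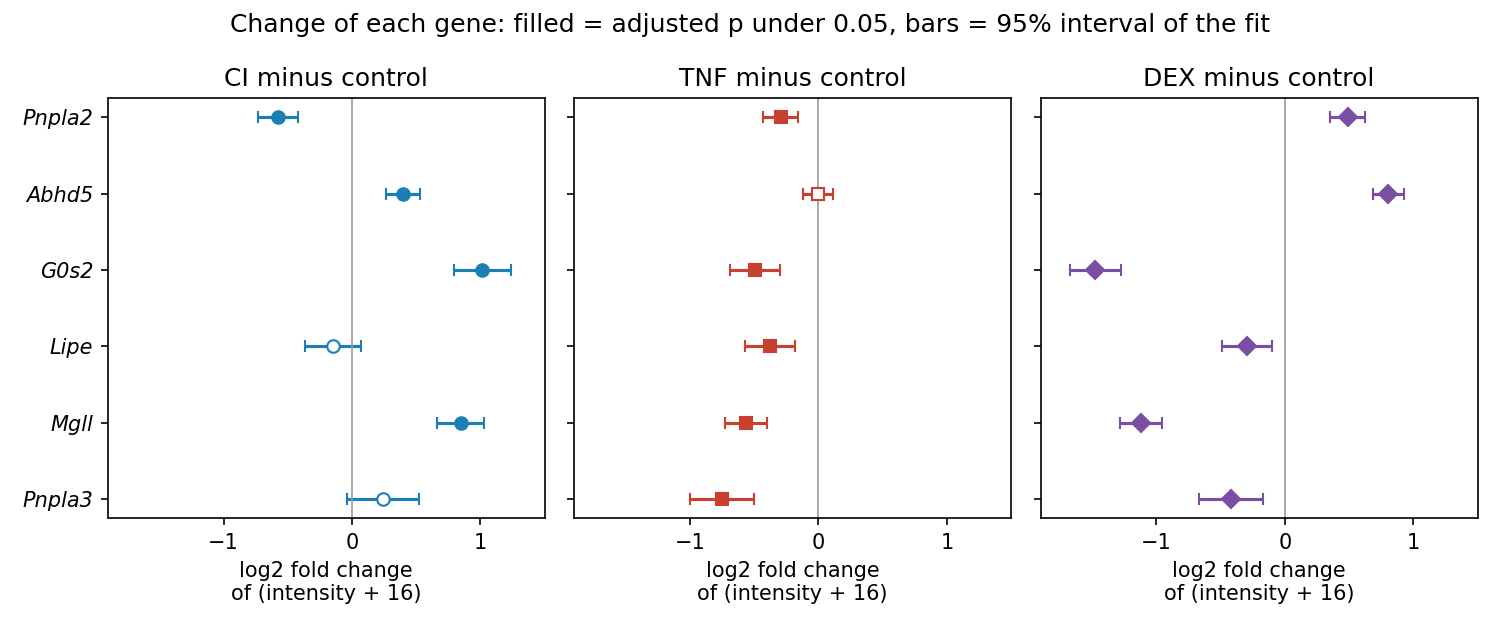
Log2 fold change of each gene on its brightest probe set in CI, TNF and DEX against control, with 95% intervals of the limma fit; filled symbols passed at an adjusted p under 0.05. Pnpla2 and G0s2 lie on opposite sides of 0 in CI (-0.57 and 1.02) and in DEX (0.49 and -1.48) and on the same side in TNF (-0.29 and -0.49).

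To set the genes beside their sequence, the 250 bases before the annotated transcript start were read from RefSeq (GRCm38.p6), where all 6 genes had a window and Lipe and Mgll had 2. The starts of the Lipe and Pnpla3 windows, and of the second Mgll window, lie inside the gene spans given below, so these windows overlap the genes. The windows of 4 genes are shown because Pnpla2 and Abhd5 rose together in DEX and parted in CI, while G0s2 and Mgll rose in CI and fell in TNF and DEX. Pnpla2 lies on chromosome 7 (chr7:141454938-141455187, plus strand), Abhd5 on chromosome 9 (chr9:122351366-122351615, plus strand), G0s2 on chromosome 1 (chr1:193273189-193273438, minus strand) and Mgll on chromosome 6 (chr6:88724162-88724411, plus strand, the more upstream of its starts). Each is written 5′ to 3′ along the gene, and capitals mark any match to the motifs listed after them.
Pnpla2: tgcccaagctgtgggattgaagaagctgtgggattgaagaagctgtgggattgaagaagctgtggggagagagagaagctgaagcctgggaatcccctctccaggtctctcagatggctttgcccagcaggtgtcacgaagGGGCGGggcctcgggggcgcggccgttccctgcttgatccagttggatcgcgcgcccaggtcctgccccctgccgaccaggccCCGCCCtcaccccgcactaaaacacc
Abhd5: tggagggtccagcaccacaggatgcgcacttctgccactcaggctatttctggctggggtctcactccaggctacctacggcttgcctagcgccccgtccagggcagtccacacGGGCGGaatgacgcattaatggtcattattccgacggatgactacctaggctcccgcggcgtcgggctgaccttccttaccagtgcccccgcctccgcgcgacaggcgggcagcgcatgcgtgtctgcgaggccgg
G0s2: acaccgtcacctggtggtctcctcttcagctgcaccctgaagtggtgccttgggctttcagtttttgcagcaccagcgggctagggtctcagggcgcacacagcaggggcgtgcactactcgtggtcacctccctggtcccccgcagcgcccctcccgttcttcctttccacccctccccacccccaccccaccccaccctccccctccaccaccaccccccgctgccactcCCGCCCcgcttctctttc
Mgll: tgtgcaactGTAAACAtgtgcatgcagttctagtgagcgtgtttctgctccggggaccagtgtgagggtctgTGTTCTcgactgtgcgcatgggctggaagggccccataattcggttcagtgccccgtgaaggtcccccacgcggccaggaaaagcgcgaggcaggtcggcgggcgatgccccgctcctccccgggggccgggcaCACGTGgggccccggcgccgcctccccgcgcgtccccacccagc

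The motifs were searched on both strands, and matches in these 4 windows did not overlap. They were the GC box (GGGCGG, in 32.7% of 32851 mouse windows of this length), the E-box (CACGTG, 6.02%), the FOXO site (GTAAACA, 3.17%), the short glucocorticoid receptor motif (AGAACA, 16.1%), the full palindromic glucocorticoid response element (0.00913%), the cAMP response element (TGACGTCA, 1.55%), an NF-kappaB site (0.14%) and the TATA box (TATAAA, 12.4%). In the Pnpla2 window GC boxes began 109 and 26 bases before the start, in Abhd5 one began at 136, and in G0s2 one began at 18, with no other match. The Mgll window held a FOXO site 241 bases before the start, a short glucocorticoid receptor motif at 178 and an E-box at 44. Of the windows not shown, that of Pnpla3 held a cAMP response element at 46 and GC boxes at 125 and 61, the more upstream Lipe window an E-box at 155 and 6 GC boxes, the other Lipe window a FOXO site at 119, and the other Mgll window a GC box at 121. A match describes the letters only, and the arrays measured no binding.

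Pnpla2 (Entrez gene 66853, GRCm38.p6 chr7:141455188-141460743) was lower in CI and TNF and higher in DEX than in control. Its brighter probe set, 1428143_a_at, read 6485 and 7037 in CI, 8367, 8648 and 7649 in TNF, 14300, 13240 and 14970 in DEX, and 10110, 9749 and 10370 in control. No treated array lay within the range of the control arrays, and the 4 groups did not overlap one another. The mean was 6761 ± 390 in CI (SD, n = 2), 8221 ± 515 in TNF (n = 3), 14170 ± 871 in DEX (n = 3) and 10070 ± 310 in control (n = 3). Pnpla2 thus fell by 32.9% in CI (log2 fold change -0.57, SE 0.0716, limma adjusted p = 9.17e-05) and fell by 18.4% in TNF (-0.29, SE 0.064, adjusted p = 0.00355). In DEX it rose by 40.7% (0.49, SE 0.064, adjusted p = 3.25e-05). The order of levels was CI, TNF, control and DEX from low to high, and each neighbour differed from the next in the fit. The step between CI and TNF was the least firm: TNF minus CI was 0.28 (adjusted p = 0.00636), and 0.22 (adjusted p = 0.0855) without CI replicate 1.

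The second Pnpla2 probe set, 1428591_at, was far dimmer, at 165.6 and 173.8 in CI, 134, 160.1 and 152.7 in TNF, 284.1, 312.7 and 306.3 in DEX, and 194.6, 184.9 and 224.1 in control. It gave the same calls in TNF (-0.40, adjusted p = 0.00244 over 33778 probe sets) and DEX (0.55, adjusted p = 0.00012). In CI it lay below every control array but did not pass (-0.22, adjusted p = 0.115). The probe sets differed in the sign of TNF minus CI, at -0.17 (adjusted p = 0.143) on the dimmer probe set, so the order of CI and TNF is not settled for Pnpla2.

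Abhd5 (Entrez gene 67469, chr9:122351616-122381524), the activator, rose in CI and DEX. Probe set 1417566_at read 4842 and 4406 in CI, 3440, 3629 and 3404 in TNF, 6351, 6038 and 6017 in DEX, and 3550, 3408 and 3541 in control. Every DEX array stood above every CI array, every CI array above TNF and control, and the TNF and control arrays were intermixed. The mean was 4624 ± 308 in CI, 3491 ± 121 in TNF, 6135 ± 187 in DEX and 3500 ± 79.5 in control (SD). Abhd5 rose by 32.1% in CI (log2 fold change 0.40, SE 0.0615, adjusted p = 0.000459) and by 75.3% in DEX (0.81, SE 0.055, adjusted p = 2.94e-08). In TNF the difference was 0.00 with a 95% interval of -0.12 to 0.11 (adjusted p = 0.967).

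The second Abhd5 probe set, 1417565_at, called the same comparisons, with log2 fold changes of 0.26 in CI (adjusted p = 0.0167) and 0.78 in DEX (adjusted p = 2.57e-07), and 0.04 in TNF (adjusted p = 0.652). Another, 1447548_at, was below the dim filter at 31.97 to 59.38 over all arrays and was not tested. Its mean differed from control by -18.9% in CI, -28.9% in TNF and -19.9% in DEX. In CI and DEX this is the other direction from the brighter probe sets, with arrays that overlapped control. With the mean of all 3 probe sets in place of the brightest, Abhd5 did not pass in CI (0.15, adjusted p = 0.164). DEX exceeded CI on the brightest probe set by 0.41 (SE 0.0615, adjusted p = 8.9e-05).

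G0s2 (Entrez gene 14373, chr1:193272160-193273188), the inhibitor, had the widest range of the 6 genes between group means on the log2 scale. Its only probe set, 1448700_at, read 6322 and 5141 in CI, 1917, 1880 and 2199 in TNF, 926, 957.3 and 1133 in DEX, and 3005, 2630 and 2814 in control. No groups overlapped, with CI highest, then control, TNF and DEX. Means were 5731 ± 835 in CI, 1999 ± 174 in TNF, 1005 ± 111 in DEX and 2816 ± 187 in control (SD). G0s2 was 2.02-fold higher in CI than in control (log2 fold change 1.02, SE 0.103, adjusted p = 1.73e-05). It fell by 29% in TNF (-0.49, SE 0.0921, adjusted p = 0.00112) and fell by 64.3% in DEX (-1.48, SE 0.0921, adjusted p = 1.18e-08). Every pair of groups differed in the fit, the closest being TNF and control, and DEX minus CI was -2.49 (SE 0.103, adjusted p = 1.3e-10).

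**Figure D2:**
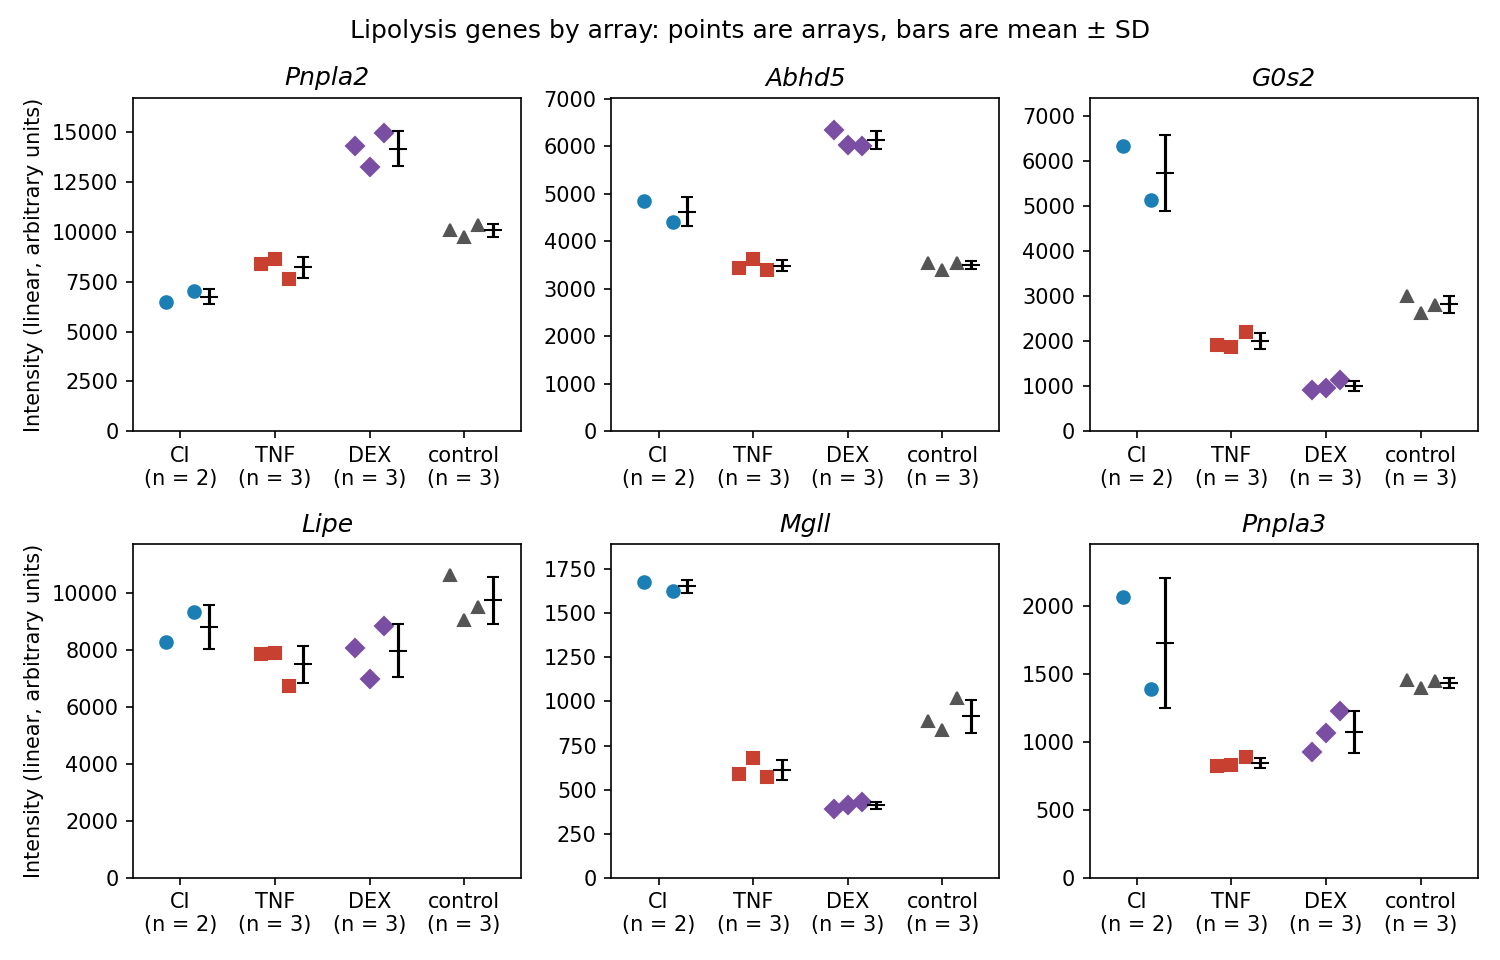
Linear intensity of each gene's brightest probe set on every array (points) with the mean ± SD beside them, for CI (n = 2), TNF, DEX and control (n = 3 each); every axis starts at 0. Pnpla2 is highest in DEX (13240 to 14970) and G0s2 in CI (5141 and 6322), and the CI arrays of Pnpla3 lie apart (2067 and 1393).

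G0s2 and Pnpla2 therefore changed unequally in CI and DEX. The log2 value of G0s2 minus that of Pnpla2, set to 0 at the control mean, was 1.80 and 1.38 on the CI arrays, -0.28, -0.36 and 0.04 on the TNF arrays, -2.09, -1.93 and -1.87 on the DEX arrays, and 0.09, -0.05 and -0.04 on the control arrays. Both CI arrays stood above and all DEX arrays below the control arrays, while 2 TNF arrays lay below every control array and 1 within their range. The mean shift was 1.59 ± 0.29 in CI, a 3.01-fold rise of inhibitor over lipase transcript signal, and -1.97 ± 0.11 in DEX, 0.256 times the control ratio. With the dimmer Pnpla2 probe set the mean shift was 1.24 in CI, -0.10 in TNF and -2.02 in DEX. These shifts are a description of unequal change and not of the 2 levels, since probe sets differ in brightness.

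**Figure D3:**
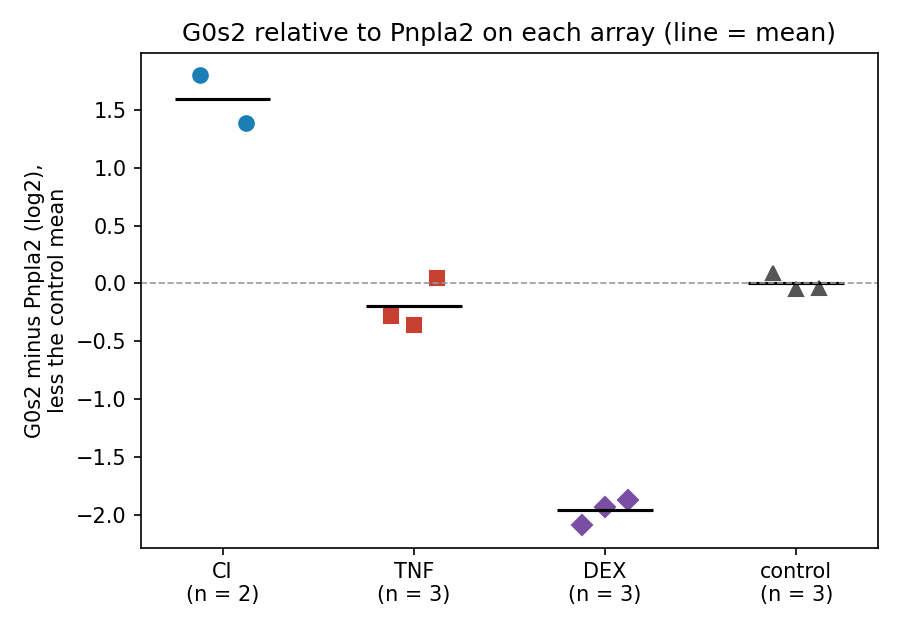
Log2 intensity of G0s2 minus that of Pnpla2 (brighter probe set) on each array, less the control mean; points are arrays and lines are group means. The CI arrays lie at 1.38 and 1.80, the DEX arrays between -2.09 and -1.87, and of the TNF arrays 2 lie below the control arrays (-0.36 and -0.28) and 1 among them (0.04).

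Lipe (Entrez gene 16890, chr7:25379527-25398486), hormone-sensitive lipase, had the smallest range of the 6 genes between group means on the log2 scale. Probe set 1422820_at read 8268 and 9344 in CI, 7851, 7893 and 6732 in TNF, 8061, 6989 and 8854 in DEX, and 10650, 9056 and 9514 in control. All TNF and DEX arrays were below all control arrays, 1 CI array lay within the control range, and the TNF and DEX arrays overlapped. Means were 8806 ± 761 in CI, 7492 ± 658 in TNF, 7968 ± 936 in DEX and 9740 ± 821 in control (SD). Lipe fell by 23.1% in TNF (log2 fold change -0.38, SE 0.0914, adjusted p = 0.00709) and fell by 18.2% in DEX (-0.29, SE 0.0914, adjusted p = 0.0266). In CI the difference was -0.14 with a 95% interval of -0.36 to 0.07 (adjusted p = 0.395).

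The DEX call of Lipe was lost without control replicate 1 (-0.23, adjusted p = 0.12), and equally without DEX replicate 1 (-0.30, adjusted p = 0.0513) and without DEX replicate 2 (-0.20, adjusted p = 0.123). The other Lipe probe set, 1432180_at, was below the dim filter at 35.86 to 50.02 over all arrays and was not tested. Its mean differed from control by 21.8% in CI, 2.6% in TNF and 11.6% in DEX, the other direction from the brighter probe set. With the mean of both probe sets, neither Lipe call passed (-0.18, adjusted p = 0.0841 in TNF and -0.09, adjusted p = 0.394 in DEX). No pair of treatments differed in Lipe, with TNF minus CI at -0.23 (adjusted p = 0.0886), DEX minus CI at -0.15 (adjusted p = 0.31) and DEX minus TNF at 0.09 (adjusted p = 0.487).

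Mgll (Entrez gene 23945, chr6:88724412-88828360), which encodes monoglyceride lipase, followed the same order of groups as G0s2. Probe set 1426785_s_at read 1677 and 1628 in CI, 590, 676.8 and 571.7 in TNF, 391.3, 409.8 and 431.4 in DEX, and 888.7, 835.5 and 1020 in control. No groups overlapped, with CI highest and DEX lowest. Means were 1653 ± 34.6 in CI, 612.8 ± 56.2 in TNF, 410.8 ± 20.1 in DEX and 914.8 ± 95.2 in control (SD). Mgll rose by 80.7% in CI (log2 fold change 0.85, SE 0.0863, adjusted p = 1.73e-05). It fell by 33% in TNF (-0.56, SE 0.0772, adjusted p = 7.71e-05) and fell by 55.1% in DEX (-1.12, SE 0.0772, adjusted p = 3.26e-08). All pairs of groups differed in the fit, and DEX minus TNF was -0.56 (SE 0.0772, adjusted p = 4.34e-05).

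Mgll had 3 further probe sets. Those named 1453836_a_at and 1450391_a_at were called in the same direction in all 3 comparisons, with log2 fold changes of 0.93 and 0.72 in CI, -0.32 and -0.40 in TNF, and -0.83 and -0.94 in DEX. On 1453836_a_at the TNF array at 380.7 overlapped the control array at 379.7. The last, 1431331_at, stayed between 91.86 and 105.9 on all arrays and passed in none (adjusted p = 0.281 in CI, 0.717 in TNF and 0.594 in DEX).

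**Figure D4:**
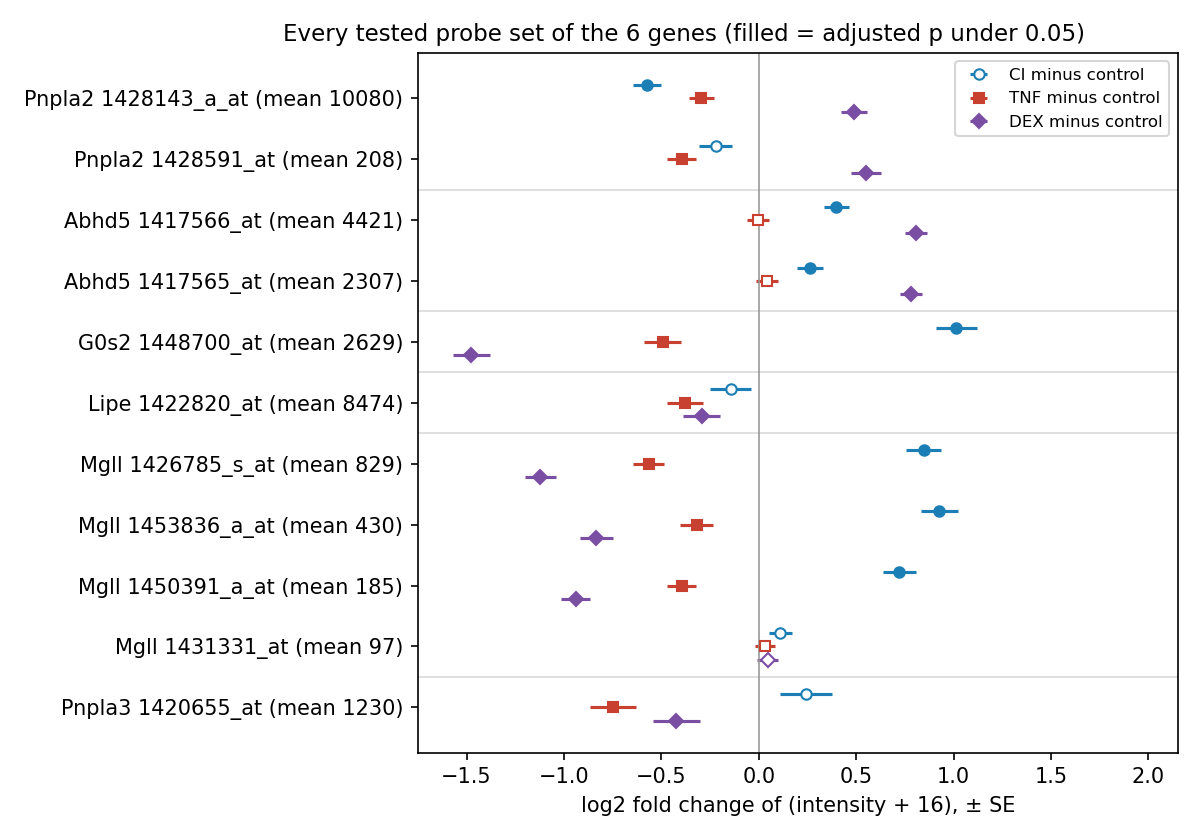
Log2 fold change against control (± SE) of the 11 tested probe sets, labelled with their mean intensity, in CI, TNF and DEX; filled symbols passed at an adjusted p under 0.05 over all tested probe sets. The 3 brighter Mgll probe sets move together while 1431331_at lies near 0 (0.11, 0.03 and 0.05), and both Pnpla2 probe sets rise in DEX (0.49 and 0.55).

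Pnpla3 (Entrez gene 116939, chr15:84167776-84189521) fell in TNF and DEX. Its only probe set, 1420655_at, read 2067 and 1393 in CI, 823.2, 829.9 and 890 in TNF, 926.2, 1064 and 1229 in DEX, and 1458, 1395 and 1450 in control. The TNF arrays were below all others, the DEX arrays lay between TNF and control, and the CI arrays parted, one far above and one just below the control range. Means were 1730 ± 476 in CI, 847.7 ± 36.8 in TNF, 1073 ± 152 in DEX and 1434 ± 34.3 in control (SD). Pnpla3 fell by 40.9% in TNF (log2 fold change -0.75, SE 0.116, adjusted p = 0.000237) and fell by 25.2% in DEX (-0.42, SE 0.116, adjusted p = 0.0132). That DEX call was lost with DEX replicate 1 left out (-0.32, adjusted p = 0.0681).

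In CI the Pnpla3 difference was 0.24 with a 95% interval of -0.04 to 0.52 (adjusted p = 0.244), and a single array decided its sign. It was -0.04 (adjusted p = 0.895) without CI replicate 1 and 0.52 (adjusted p = 0.0106) without CI replicate 2, where the fit lends the lone CI array the spread of the remaining groups. CI replicate 1 is also the array with the highest actin ratio, 1.82 against 1.43 in CI replicate 2. The same ratio for Gapdh did not set these arrays apart, with all 11 arrays at 1.04 to 1.11, and the part of RNA integrity in the Pnpla3 difference was not tested. G0s2, Abhd5 and Mgll were also higher in CI replicate 1 than in CI replicate 2, and Pnpla2 and Lipe were lower, but all calls of Pnpla2, Abhd5, G0s2 and Mgll in CI held without either array. DEX minus TNF for Pnpla3 was 0.33 (adjusted p = 0.0402) and passed in 5 of 11 runs that left out an array, with adjusted p-values from 0.0072 to 0.174.

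Between the treatments, TNF and CI differed in 5 of the 6 genes, 1 higher and 4 lower in TNF, where 36.2% of all tested genes were called, 18.9% higher and 17.3% lower. The 1 higher was Pnpla2 (0.28), whose dimmer probe set had the other sign (-0.17), so this difference is not settled. G0s2 (-1.51, SE 0.103) and Mgll (-1.41, SE 0.0863) had the largest TNF minus CI differences, followed by Pnpla3 (-0.99, SE 0.13) and Abhd5 (-0.40, SE 0.0615). DEX and CI also differed in 5, with Pnpla2 (1.07, SE 0.0716) and Abhd5 higher in DEX and G0s2, Mgll (-1.97, SE 0.0863) and Pnpla3 lower, beside 34% of all genes (17.1% higher and 16.9% lower). The Pnpla3 value there was -0.66 (adjusted p = 0.000878), and -0.95 without CI replicate 2 and -0.38 without CI replicate 1, as the CI array that remains is then the higher or the lower one. DEX and TNF differed in 5 beside 36.1% of all genes (18% higher and 18.2% lower), with Pnpla2 (0.78, SE 0.064), Abhd5 (0.81, SE 0.055) and Pnpla3 higher in DEX and G0s2 (-0.98, SE 0.0921) and Mgll lower. Groups did not overlap for 6 genes between TNF and CI, 5 between DEX and CI and 5 between DEX and TNF, with 60.6%, 52.8% and 47.7% of all tested genes not overlapping. Of the 11 probe sets, 8 were called in TNF minus CI, 9 in DEX minus CI and 8 in DEX minus TNF, beside 30%, 28.5% and 29.3% of all probe sets.

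Likeness to the members was measured over the 11 arrays as the root mean square difference of log2 values, each less its control mean, so that a smaller value is closer. For G0s2 the closest of the tested genes were Ppp1r3d (0.225), Mgll (0.243) and Ppp1r3b (0.259). Ppp1r3d was also the closest to Mgll (0.121), with log2 fold changes of 0.71 in CI, -0.48 in TNF and -1.16 in DEX, followed by C9orf72 (0.164) and BC023105 (0.172). Cbr2 (0.0996), Oxld1 (0.105) and Peli2 (0.123) were closest to Pnpla2, and Cbr2 was at -0.59 in CI, -0.18 in TNF and 0.53 in DEX. Cdk5rap1 (0.097), Osbpl11 (0.103) and Tbc1d4 (0.107) were closest to Abhd5, Adcy6 (0.0749), Zfp385a (0.0879) and Ly86 (0.0916) to Lipe, and Pdxp (0.124), 2010003K11Rik (0.129) and Tmem120b (0.149) to Pnpla3. In all, 7 genes were within 0.1 of Lipe, 1 each of Pnpla2 and Abhd5, and 0 of G0s2, Mgll and Pnpla3. The measure is an absolute distance, so a gene that changes little, as Lipe did, tends to have more genes near it. These counts therefore do not rank how closely other genes vary with each member.

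Lipid droplet proteins govern the access of lipases to the stored fat. Of 17 tested, 5 rose and 3 fell in CI, 2 rose and 4 fell in TNF, and 5 rose and 1 fell in DEX, with medians of 0.045, -0.044 and 0.025. The 8 calls in CI, 6 in TNF and 6 in DEX stand beside 17.3%, 25.2% and 27.6% of all tested genes called. In CI Plin2, a droplet coat protein, rose by 0.59 on the log2 scale, while its relatives Plin3 (-0.37) and Plin4 (-0.40) and the droplet enzyme gene Hsd17b11 (-0.69) fell. In TNF Cidec, which promotes droplet fusion, was at -0.64, Bscl2 (seipin) at -0.66, Cav1 (caveolin) at -0.56 and Fitm2 at -0.53, all called. In DEX Cidea (0.63), Hsd17b11 (0.50), Plin3 (0.42) and Cidec (0.22) rose, the last not without control replicate 2 (adjusted p = 0.073). Further calls of these genes were Hsd17b11 (0.50) and Plin3 (0.26) higher in TNF and Plin2 (-0.18) lower in DEX. In CI, Fitm2 (0.27), Cav1 (0.21) and Cidec (0.205) were called higher as well. Plin1, the perilipin that holds ABHD5 in the basal state, was not analysed here.

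Among genes of hormonal control, 29 were tested. In CI 4 rose and 0 fell, in TNF 5 rose and 7 fell, and in DEX 3 rose and 9 fell, with medians of -0.002, -0.042 and -0.042. Over all genes 17.3%, 25.2% and 27.6% were called, and the 4 of 29 in CI are no larger a share than that. Hcar2, a receptor that restrains lipolysis, rose in CI (0.68) and fell in DEX (-0.73), and so did Pde4b, a phosphodiesterase that degrades cyclic AMP (0.62 and -0.63). Prkar2b, a regulatory subunit of protein kinase A, rose in CI (0.32) and fell in TNF (-0.35), and Prkar1a rose in CI (0.19), though 14 of 21 other settings did not call it. In TNF Npy1r, a receptor for neuropeptide Y, rose by 1.52 and Npr3, the clearance receptor for natriuretic peptides, by 0.50, while Pde3b, the phosphodiesterase through which insulin restrains lipolysis, fell (-0.49). In DEX the anchoring protein gene Akap12 (-0.96) and Tshr, the thyrotropin receptor gene (-0.56), also fell. Several of these changes were shared: Tshr (-0.45), Hcar2 (-0.38) and Akap12 (-0.26) were called lower in TNF too. In DEX, Npy1r (0.56) was called higher and Pde3b (-0.23) lower, as in TNF. The β-adrenergic receptor genes were not analysed here.

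Genes that handle glycerol and fatty acids had more lower than higher calls in TNF and DEX. Of 15 tested, 2 rose and 2 fell in CI, 1 rose and 8 fell in TNF, and 0 rose and 9 fell in DEX, with medians of 0.061, -0.219 and -0.264. Lower calls made up 8.88%, 11.3% and 13.6% of all tested genes, and higher calls 8.38%, 13.9% and 14%. In DEX Pck1, an enzyme of glycerol backbone synthesis, fell by 2.31, Acsl3, a fatty acid activating enzyme, was at -1.47, the glycerol channel gene Aqp7 at -0.98 and Gpd1, which makes glycerol 3-phosphate, at -0.91. In TNF Dgat2, which forms triglyceride, was at -0.81, Gpd1 at -0.62 and Acsl3 at -0.59, while Acsl5 rose by 0.51. In CI Dgat2 (0.45) and the fatty acid transporter gene Slc27a4 (0.32) rose, and Slc27a1 (-0.80) fell. Dgat1 (-0.18) was called in CI too, but not in 12 of 21 other settings. Falls were often shared between TNF and DEX. Pck1 (-1.21), Aqp7 (-0.49), Dgat1 (-0.36) and Slc27a4 (-0.22) were also called lower in TNF, and Dgat2 (-0.68) and Dgat1 (-0.15) in DEX.

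Other lipases and esterases moved both ways. Of 17 tested, 0 rose and 3 fell in CI, 4 rose and 3 fell in TNF, and 4 rose and 6 fell in DEX, with medians of 0.02, -0.078 and 0. The 3 of 17 called in CI are close to the 17.3% of all genes, while TNF and DEX had 7 and 10 beside 25.2% and 27.6%. Ces1d, a carboxylesterase that hydrolyses triglyceride, fell in CI (-0.66) and TNF (-0.61). Ces1f fell in DEX (-1.42) and TNF (-0.46), and Ces1g was called higher in TNF (1.21) and lower in DEX (-0.45). Ces1g was dim, averaging 51.85 in CI, 129.1 in TNF, 30 in DEX and 46.98 in control. It passed the dim filter of 51.8 through its TNF arrays. The DEX and control means both lie under that filter, so little can be read from the DEX call. Pnpla7, a patatin-like lipase gene, rose in TNF (0.44), Lipa, the lysosomal acid lipase gene, fell in DEX (-0.37), and Plaat3, an adipocyte phospholipase gene, fell in CI (-0.35). Ddhd1 rose in DEX (0.40) and was called lower in CI (-0.16), where 14 of 21 other settings did not call it. Lipa (0.29) and Ddhd1 (0.30) were also called higher in TNF, so Lipa moved oppositely in TNF and DEX. Pnpla7 (0.22) was called higher and Plaat3 (-0.24) lower in DEX too.

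**Figure D5:**
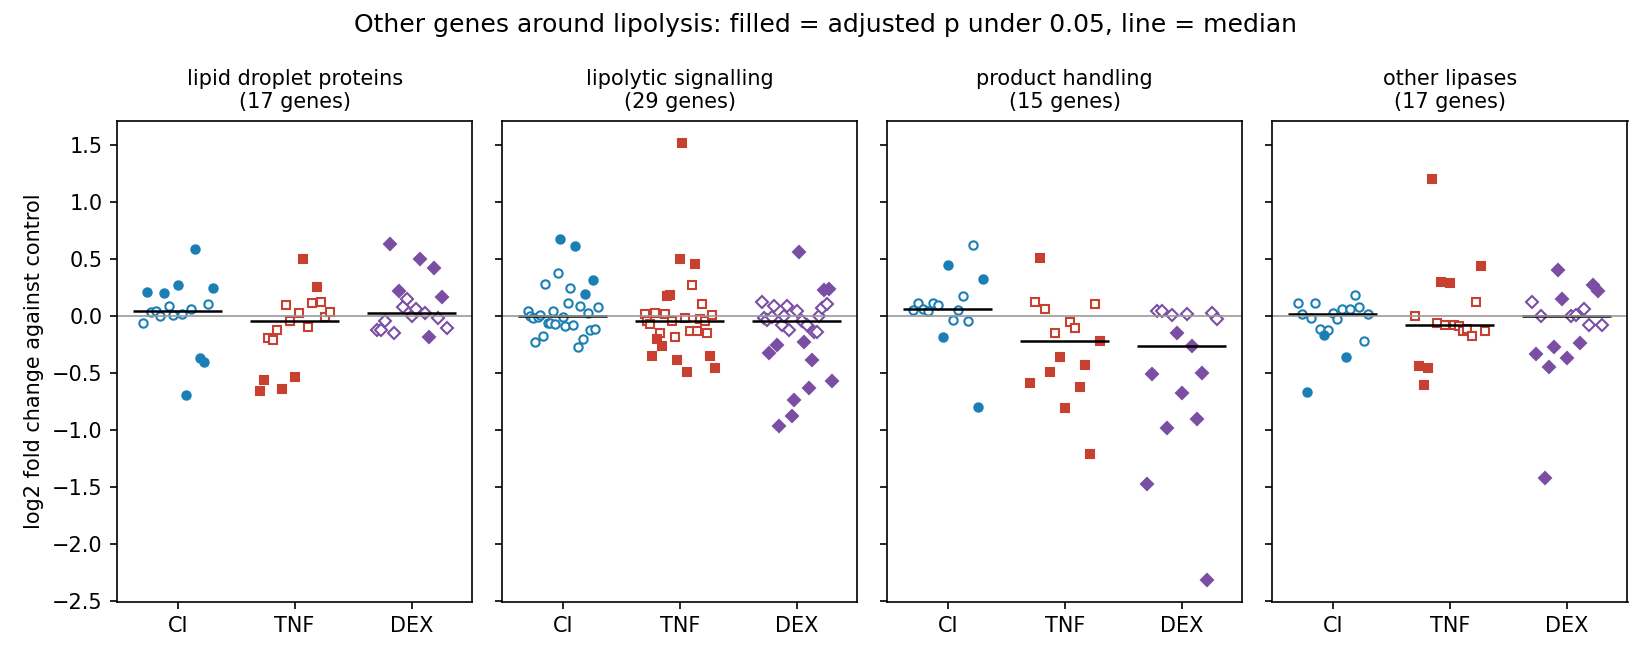
Log2 fold change against control of every tested gene of the 4 groups around lipolysis in CI, TNF and DEX; filled symbols passed at an adjusted p under 0.05 and lines are medians. The product handling genes have the lowest medians (-0.219 in TNF and -0.264 in DEX), and the other groups spread to both sides of 0.

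Calls among markers of cell types are set beside the shares of all tested genes called higher and lower. These shares were 8.38% and 8.88% in CI, 13.9% and 11.3% in TNF, and 14% and 13.6% in DEX. The summed intensity of 9 adipocyte markers was 106900 to 107200 in CI, 88930 to 89890 in TNF, 102000 to 107600 in DEX and 106800 to 107100 in control. Most of each sum comes from Adipoq, Fabp4 and Lpl, which lie near the top of the scale, so the sum says little of the dimmer markers. Of the 9, 0 rose and 4 fell in TNF (Cidec, Retn, Cebpa and Slc2a4), beside the 5 lipolysis genes that fell there. In DEX 1 rose (Cidec) and 3 fell, Pparg (-0.39), Cebpa (-0.29) and Slc2a4 (-0.80), beside the 4 lipolysis genes that fell, and in CI 2 rose (Cidec and Lep) and 0 fell. Both CI calls are weak: Cidec had a limma adjusted p of 0.0469. Lep averaged 70.3 in CI and 58.04 in control, near the dim filter of 51.8. The sum of 13 preadipocyte and fibroblast markers was 52100 to 54440 in CI, 65530 to 68490 in TNF, 41120 to 46980 in DEX and 58420 to 65590 in control, with 4 rising and 1 falling of 11 tested in TNF, 0 and 6 in CI, and 3 and 6 in DEX. The sum of 12 macrophage and leukocyte markers was 4545 to 4894 in CI, 7448 to 7868 in TNF, 3920 to 4368 in DEX and 5245 to 5457 in control, with 4 rising and 1 falling of 10 tested in TNF, 1 and 2 in CI, and 1 and 3 in DEX, and the defining genes Ptprc and Itgam stayed under the dim filter. In whole cultures fewer adipocytes and less RNA per adipocyte cannot be told apart, and the part of the markers in the changes of the lipolysis genes was not tested.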

How the data were processed

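RNA of the 11 samples was hybridised to Affymetrix arrays as biotin-labelled cRNA made from 3 µg of total RNA, per the labels' protocols. Linear intensity values of 45101 probe sets on 11 arrays were deposited as a single table. The background correction, probe summary and scaling behind these values are unstated in the sources used here. Across arrays the quartiles of the log2 values lay within 0.0765 of each other, less than a limit of 0.1, and no normalization was added. Arrays have no read depth, and their number limits the precision.

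Groups came from the sample titles, and every value column matched a sample. Affymetrix control probe sets (64) were removed. The platform annotation gave 34945 probe sets 1 symbol, 932 several and 9160 none, and 0 symbols changed when matched by gene identifier. For each gene the probe set with the highest mean was used, genes whose mean fell below the 25th percentile of probe sets were dropped, and log2(intensity + 16) was taken, which understates changes of dim genes. A linear model with 1 mean per group was fitted to the 11 arrays with limma 3.58.1 (R 4.3.3; lmFit and eBayes, two-sided; 7 residual and 7.59 prior degrees of freedom), with Benjamini-Hochberg adjustment over 15622 genes. A second fit covered all 33778 probe sets past the filter. The fit was tested on simulated data.

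The members, gene lists and tests were chosen with earlier results of these data known. The text names every probe set of the members, up to 4 called genes of a list per comparison with the smallest adjusted p, the 6 treatment check genes, and for each member the 3 closest genes. Where a list gene so named was called in a further comparison with control, that call is given too. Alternatives were other pseudocounts, normalizations, dim filters and probe set rules, fits of 2 groups, a variance trend, a replicate block, and leaving out each array. Replicate numbers in the titles are shared between groups, and whether they pair the arrays is not settled. Of 15 same-numbered pairs, 6 had correlated deviations above 0.1 (range -0.287 to 0.341). The highest were control 3 with TNF 3 (0.341), control 1 with TNF 1 (0.288) and control 1 with DEX 1 (0.277), while TNF 2 with DEX 2 was at -0.166. The 2 CI arrays deviate from their mean equally and oppositely, so pairs with CI cannot decide it. CI 2 with DEX 2 (-0.287), the lowest pair, and CI 2 with TNF 2 (0.167), counted among the 6, are such pairs. Of the listed genes, those with no single-symbol probe set in the annotation were not analysed here.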

Additional observations from a re-analysis of the deposited data

How the results depend on the processing

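Over 21 alternatives for each of the 18 comparisons of a member with control, 363 of 378 fits kept the direction and the call. Many of these alternatives could not change the direction. Other dim filters, fits of 2 groups, a variance trend and leaving out an array of an uncompared group keep the fold change and can alter the call only. For G0s2 and Pnpla3, with a single probe set, so does the mean of all probe sets. The same limit applies to the counts for treatment pairs and list genes below. All alternatives kept those of G0s2, Mgll and Pnpla2 in the 3 comparisons with control, of Abhd5 in DEX and of Pnpla3 in TNF. With the mean of all probe sets, which brings in the dim ones, Abhd5 in CI (0.15), Lipe in TNF (-0.18) and Lipe in DEX (-0.0879) no longer passed, and Lipe in CI, not called, turned to 0.0336. Abhd5 in TNF, not called, was 0.0151 after centring on the array median and ran from -0.0321 to 0.014 when an array was left out, with values of 0.0065 without control replicate 1, 0.0046 without control replicate 3, 0.0064 without TNF replicate 1 and 0.014 without TNF replicate 3. Leaving out an array gave -0.37 to -0.20 for Lipe in DEX, -0.52 to -0.32 for Pnpla3 in DEX and -0.0411 to 0.52 for Pnpla3 in CI, the lowest without CI replicate 1. Genes called ran from 1433 (without CI replicate 1) to 3043 in CI, from 2809 to 4250 in TNF and from 3462 to 4318 in DEX. Between treatments 368 of 378 fits kept the call and 10 lost it, all for Pnpla3 in DEX minus TNF and Pnpla2 in TNF minus CI (with the mean of all probe sets, 0.33 and 0.05). Of the 47 calls of list genes chosen by the smallest adjusted p, 43 held under every alternative that gave a value. The exceptions, Cidec in DEX and Ddhd1, Prkar1a and Dgat1 in CI, are described above. The further calls of these genes were not put to the alternatives. With the replicate block 2784, 3976 and 4393 genes were called in CI, TNF and DEX, against 2696, 3931 and 4316 without it, and no call of a member changed; G0s2 was 1.07 in CI. As it is not settled whether the numbers pair the arrays, the block is not taken as a stricter test. In all, 6 of 11 arrays correlated best with arrays of their own number. That count includes the CI arrays and the pairs with CI, so it does not settle the pairing either. The causes of these shifts were not tested.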
